A study of Mus musculus with 7 samples.

Results

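Secreted antimicrobial proteins were followed through the single cells of the mouse mammary gland as 9 genes, Ltf, Lcn2, Slpi, Wfdc18, Wfdc2, Chi3l1, Saa3, Lyz2 and Pigr, chosen by symbol out of the 27998 genes of the raw count matrix. Chi3l1 stands in the matrix under the symbol Chil1, which RefSeq lists as the same gene. The samples were dissociated #4 abdominal mammary glands, freed of lymph nodes, of 3 young (3 to 4 months) and 4 aged (13 to 14 months) nulliparous female mice. All mice were of a mixed FVB, 129 and C57BL/6J background and were cycling mice taken at diestrus, and the labels name no treatment. Each mouse gave 1 library of 10× Chromium 3′ v2 chemistry, in which a unique molecular identifier (UMI) marks each captured mRNA molecule. In all, 13684 cells of 13 cell types, named by the authors, were kept, with 6652599 to 16999625 UMIs per mouse. The cell barcodes of different mice coincided for 101 of 13583 distinct sequences. The labels give no batch of dissociation or sequencing, so a batch that followed age cannot be told apart from age.

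The epithelium of the gland is a bilayer. Alveolar (AV) luminal cells are the secretory lineage that makes milk, hormone-sensing (HS) luminal cells carry the receptors for ovarian steroids and prolactin, and myoepithelial cells form the contractile basal layer. Milk and the duct lining contain proteins that starve, bind, or lyse bacteria or protect tissue from the proteases of inflammation. Lactotransferrin (Ltf) binds iron, and lipocalin 2 (Lcn2) captures the siderophores with which bacteria collect it. Slpi, Wfdc18 and Wfdc2 share the whey acidic protein (WAP) domain, and Slpi inhibits neutrophil serine proteases. Chi3l1 is a chitinase-like lectin without enzymatic activity, Saa3 is an acute-phase apolipoprotein, Lyz2 is the lysozyme of myeloid cells, and Pigr carries polymeric IgA and IgM across epithelia.

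The promoters of the 5 members called with age in epithelial cells other than Lyz2 are shown so that the genes whose levels differed with age can be compared there. Each line gives the 250 bases upstream of the RefSeq start site on GRCm38.p6, the same assembly as the mm10 build of the counts, 5′ to 3′ on the strand of the gene. The positions are chr9:111019042-111019291 on the plus strand for Ltf, chr2:32387740-32387989 on the minus strand for Lcn2, chr2:164356508-164356757 on the minus strand for Slpi, chr11:83708754-83709003 on the plus strand for Wfdc18, and chr1:134181906-134182155 on the plus strand for Chi3l1. Capitals mark matches to the C/EBP motif TTNNGNAA on either strand, to an NF-kB motif, and to TATAAA.
Ltf: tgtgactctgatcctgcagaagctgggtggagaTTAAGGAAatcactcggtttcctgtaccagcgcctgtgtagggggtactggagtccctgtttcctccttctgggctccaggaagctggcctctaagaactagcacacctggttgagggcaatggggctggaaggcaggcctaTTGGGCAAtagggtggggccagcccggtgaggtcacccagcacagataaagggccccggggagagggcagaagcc
Lcn2: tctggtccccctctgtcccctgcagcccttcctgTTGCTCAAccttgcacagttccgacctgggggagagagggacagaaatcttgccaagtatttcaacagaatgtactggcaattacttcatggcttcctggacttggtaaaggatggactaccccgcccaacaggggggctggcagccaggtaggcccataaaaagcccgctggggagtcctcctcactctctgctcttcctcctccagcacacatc
Slpi: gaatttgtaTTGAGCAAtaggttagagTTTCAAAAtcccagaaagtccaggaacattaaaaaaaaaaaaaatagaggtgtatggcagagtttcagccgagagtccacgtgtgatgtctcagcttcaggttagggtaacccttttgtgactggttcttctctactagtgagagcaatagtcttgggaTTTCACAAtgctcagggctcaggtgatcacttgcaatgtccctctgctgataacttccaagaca
Wfdc18: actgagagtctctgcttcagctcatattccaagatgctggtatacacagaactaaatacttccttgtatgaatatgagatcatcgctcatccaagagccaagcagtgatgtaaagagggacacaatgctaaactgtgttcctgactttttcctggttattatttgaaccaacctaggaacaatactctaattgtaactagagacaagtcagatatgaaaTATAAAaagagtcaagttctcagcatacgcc
Chi3l1: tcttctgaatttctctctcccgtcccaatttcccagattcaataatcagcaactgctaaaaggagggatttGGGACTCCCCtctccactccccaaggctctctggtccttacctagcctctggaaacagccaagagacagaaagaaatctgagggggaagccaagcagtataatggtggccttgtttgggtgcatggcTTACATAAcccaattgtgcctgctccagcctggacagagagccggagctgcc
The C/EBP motif was present in 7 of the 9 members and in 36.9% of 27025 RefSeq promoters of the same length. Wfdc18 and Pigr had none. The NF-kB motif was present only in Chi3l1, between 179 and 170 bases before the start site, and in 5.70% of all promoters. TATAAA was present only in Wfdc18, between 31 and 26 bases before the start site, and in 13.0% of all promoters. A STAT motif, TTCNNNGAA, was present in none of the members and in 7.18% of all promoters. No matches overlapped, and a match describes the letters alone.

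The cell type with the highest mean level of a member is named its main source here. Levels were given as CPM, the UMIs of a gene per 1000000 UMIs in the cells of a type in a mouse, for mice with at least 3 such cells. They are a description, since the authors clustered the cells on these genes and used Wfdc18 and Ltf among others to name AV cells. The mean over mice was highest in AV cells for Ltf, Lcn2, Wfdc18 and Pigr, in myoepithelial cells for Slpi and Chi3l1, in HS cells for Wfdc2, in fibroblasts for Saa3, and in macrophages for Lyz2. The lead was narrow for Saa3, at 10.1 against 9.06 CPM in dendritic cells. It was narrow for Lyz2 too, at 7008 CPM in Mb against 6602 CPM in Ma macrophages. Both orders turned under some alternatives. Markers were checked against the labels of the epithelial types. The summed level of 7 AV markers was 5179 to 23628 CPM per mouse in AV cells and at most 1511 CPM in myoepithelial cells, and that of 3 myoepithelial keratins was 9000 to 11744 CPM in myoepithelial cells and at most 140 CPM in HS cells. Small groups departed from this, with an AV marker sum of up to 10843 CPM in the T and B cells of an aged mouse and up to 4806 CPM in the NK cells of another. Age was tested in 8 types with edgeR's quasi-likelihood test on the summed counts of each mouse, Benjamini-Hochberg adjusted over all genes of the type, and a difference was called at an adjusted p under 0.05 and at least 1.5-fold.

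**Figure D1:**
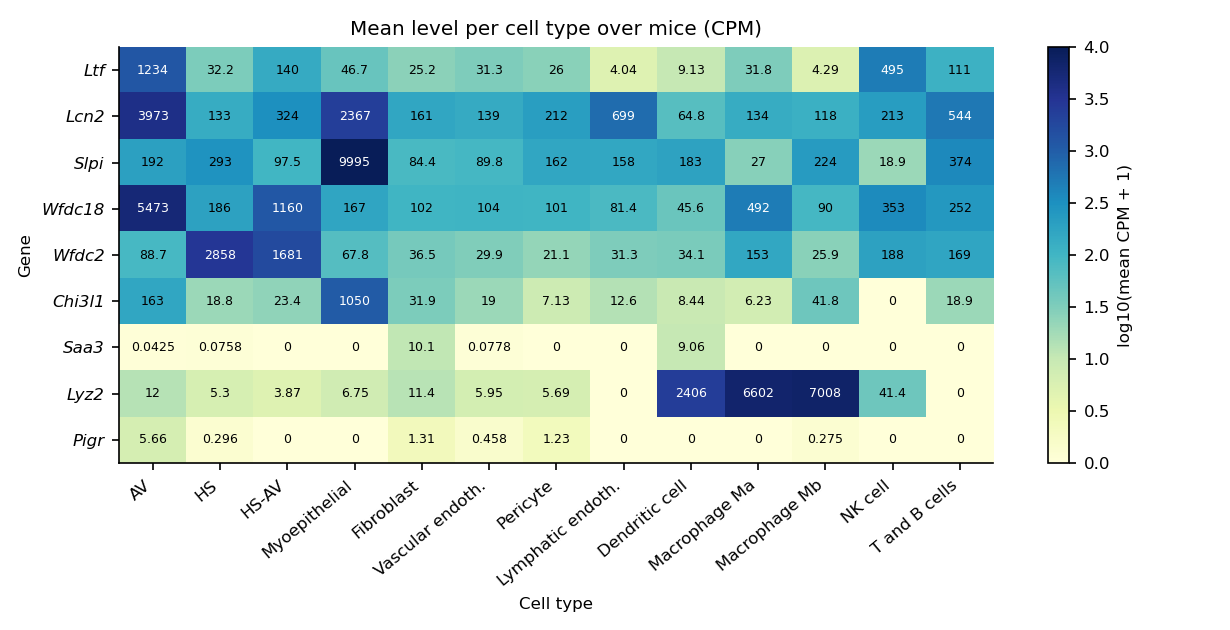
Mean level (CPM, printed in each field, colour on a log10 scale) of the 9 genes in 13 cell types, over the mice with at least 3 cells of the type. Slpi reached 9995 CPM in myoepithelial cells, Wfdc18 5473 CPM in AV cells and Lyz2 7008 CPM in Mb macrophages, while Saa3 and Pigr stayed at or under 10.1 CPM in every type.

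Ltf, the iron-binding protein, varied widely between mice. In AV cells it had 64.6, 360 and 2140 CPM in Young A, B and C, and 1847, 2463, 868 and 893 CPM in Aged A, B, C and D. Young C therefore lay within the aged range, while Young A and Young B lay below every aged mouse. The young mice differed among themselves by 33.1-fold and the aged by 2.84-fold. Aged minus young was 1.05 ± 0.85 on the log2 scale (SE, here and below an approximation from the test statistic), and it was not called (edgeR adjusted p = 0.512, approximate 95% interval −0.61 to 2.71), also not without Young C, where it was 3.11 (adjusted p = 0.0692). AV cells held 96.0% of all Ltf UMIs. In young myoepithelial cells the level was 0.944, 0 and 39.0 CPM, against 130, 85.1, 27.7 and 44.5 CPM in aged ones, a called rise (3.04 ± 0.75, adjusted p = 0.00656) that rested on 13 UMIs in young and 484 in aged mice. The call was lost without Young A (log2 1.76, adjusted p = 0.117) and with DESeq2 (adjusted p = 0.182). Ltf in myoepithelial cells ran at 0% to 7.01% of its level in the AV cells of the same mouse, and the sum of the AV markers ran there at 3.98% to 23.7% of its AV level.

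Lcn2, the siderophore trap, was high in AV and myoepithelial cells alike. In AV cells it had 2110, 3475 and 3051 CPM in young mice and 5840, 4142, 4027 and 5167 CPM in aged mice, so every aged mouse was above every young one. The rise was called (1.00 ± 0.23 log2, 2.00-fold, adjusted p = 0.0294). It did not stay below 0.05 in all repeats, with adjusted p from 0.0582 to 0.0977 without Young A, Young C, Aged A, Aged C or Aged D in turn and 0.0585 without ribosomal protein and mitochondrial genes. In myoepithelial cells the levels were 1879, 2649 and 2386 CPM in young and 3304, 2737, 2038 and 1575 CPM in aged mice. These groups overlapped, and the difference was 0.17 ± 0.22 (adjusted p = 0.619, interval −0.27 to 0.61), an interval that leaves out a 2.00-fold rise. AV cells were above myoepithelial cells in 7 of 7 mice, by 0.72 ± 0.52 (SD) on the log2 scale of CPM + 1.

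Lymphatic endothelial cells came next for Lcn2. Their level was 815 and 581 CPM in Young A and Young C and 348, 768 and 985 CPM in Aged B, C and D, from 3 to 7 cells a mouse and 132 UMIs in all. It ran at 8.39% to 38.6% of the AV level of the same mouse, while the AV marker sum ran at 1.64% to 9.08%, with Lcn2 above it in 5 of 5 mice, and 24 of 28 lymphatic cells held an Lcn2 UMI. T and B cells and then HS-AV cells followed, in an order that did not exceed the spread between mice. In the other stromal types Lcn2 was low and called higher with age: pericytes had 40.7, 87.8 and 13.7 CPM in young and 236, 456, 221 and 429 CPM in aged mice (2.91 ± 0.42, adjusted p = 0.00125). Vascular endothelial cells had 60.7, 102 and 97.6 CPM against 280, 97.8, 159 and 176 CPM (1.40 ± 0.32, adjusted p = 0.0047), where Aged B fell inside the young range. In fibroblasts 43.8, 24.2 and 59.2 CPM stood against 255, 40.3, 101 and 603 CPM, with Aged B again in the young range (2.59 ± 0.61, adjusted p = 0.0342), and that call was lost without each of Young A, B and C, Aged A and Aged D (adjusted p from 0.0518 to 0.119). The AV marker sum was also higher in these types of aged mice. It was 315 to 470 CPM in young and 548 to 2485 CPM in aged pericytes, 278 to 416 and 352 to 773 CPM in vascular endothelial cells, and 205 to 345 and 317 to 1966 CPM in fibroblasts. Its part in the rise of Lcn2 was not tested.

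Slpi, the protease inhibitor, belonged to myoepithelial cells. They had 4375, 7053 and 5126 CPM in young mice and 17363, 16292, 6992 and 12762 CPM in aged mice. Aged A, B and D were above all young mice, and Aged C fell just under Young B. The rise was called at 1.39 ± 0.28 log2 (2.62-fold, adjusted p = 0.00174) and kept its call when each mouse was left out in turn. Myoepithelial cells were above the next type by the mean over mice, T and B cells, in 7 of 7 mice and held 89.7% of all Slpi UMIs. T and B cells averaged 0 CPM in young and 654 CPM in aged mice and were above HS cells in 1 of 7 mice. Without Aged C, HS cells were the next type. HS cells followed at 81.6, 81.2 and 39.7 CPM in young and 909, 113, 530 and 297 CPM in aged mice. Here the groups did not overlap (2.84 ± 0.54, 7.18-fold, adjusted p = 0.0148), and the call was lost without Young C (log2 2.57, adjusted p = 0.0687). The myoepithelial keratin sum was higher in aged HS cells too, at 38.0 to 140 CPM against 13.9 to 22.2 CPM. Slpi ran there at 0.696% to 7.58% of its myoepithelial level and the keratin sum at 0.126% to 1.34%, with Slpi above the keratins in 7 of 7 mice.

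Outside the epithelium Slpi was called higher with age in vascular endothelial cells and pericytes. Vascular endothelial cells had 32.1, 10.3 and 5.50 CPM in young mice and 172, 83.1, 58.8 and 267 CPM in aged mice (3.40 ± 0.57, adjusted p = 0.000603). Pericytes had 33.1, 31.2 and 0 CPM against 211, 42.4, 662 and 154 CPM (3.57 ± 0.76, adjusted p = 0.00887), from 33 young and 168 aged UMIs. The groups did not overlap in either type. The keratin sum was 9.80 to 36.4 CPM in young and 62.4 to 175 CPM in aged vascular endothelial cells, and 4.57 to 66.3 against 21.2 to 520 CPM in pericytes. Its part in these differences was not tested. Fibroblasts were short of the threshold (2.64 ± 0.68, adjusted p = 0.0517) and past it without Young B (adjusted p = 0.0271) or Aged B (adjusted p = 0.0255). Also short of it were AV cells (1.08 ± 0.48, adjusted p = 0.209), in which Aged A stood alone at 483 CPM.

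Wfdc18, a WAP-domain protein of the secretory epithelium, fell in AV, HS and vascular endothelial cells. In AV cells it had 10038, 6078 and 10984 CPM in young mice and 3565, 3495, 2267 and 1882 CPM in aged mice, with no overlap. The fall was called at −1.43 ± 0.25 log2 (young over aged 2.70-fold, adjusted p = 0.0098), and without Young C it was −1.25 with an adjusted p of 0.0617. The AV markers moved the other way, from a sum of 5179 to 12551 CPM in young to 14159 to 23628 CPM in aged AV cells. HS cells had 513, 145 and 340 CPM in young and 121, 65.2, 42.1 and 76.9 CPM in aged mice (−1.99 ± 0.37, adjusted p = 0.0138). Vascular endothelial cells had 98.1, 121 and 301 CPM against 89.0, 34.2, 45.5 and 36.2 CPM (−1.40 ± 0.40, adjusted p = 0.0168), and this call was lost without Young C (log2 −0.76, adjusted p = 0.0893) or Aged D (log2 −1.27, adjusted p = 0.0582). Relative to the AV cells of the same mouse, Wfdc18 ran at 1.86% to 5.11% in HS and 0.978% to 2.74% in vascular endothelial cells. The AV marker sum ran at 1.54% to 7.38% and 1.93% to 5.38% there.

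Myoepithelial cells did not share the fall of Wfdc18, at 198, 73.7 and 227 CPM in young and 186, 133, 266 and 85.0 CPM in aged mice (−0.01 ± 0.34, adjusted p = 0.990, interval −0.67 to 0.65). HS-AV cells, the luminal cells with markers of both lineages, ranked second for Wfdc18. They had 2523, 1055 and 3009 CPM in young mice and 110, 220 and 43.4 CPM in Aged A, B and D, the aged values from 4 to 6 cells each. The type was left out of the age tests. Their AV marker sum was 1201 to 2272 CPM in young and 220 to 403 CPM in aged mice.

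Wfdc2, another WAP-domain protein, marked HS cells, with 2634, 2330 and 1981 CPM in young mice and 2683, 2969, 2190 and 5220 CPM in aged mice. The groups overlapped, Aged D stood above the rest, and the difference was not called (0.64 ± 0.30, adjusted p = 0.231). HS-AV cells came next at 661, 1361 and 808 CPM in young and 2384, 1612 and 3258 CPM in aged mice, below HS cells in 6 of 6 mice by 0.97 ± 0.62 (SD) log2. In AV cells the level was low and ran the other way with age, at 115, 124 and 120 CPM in young and 64.7, 88.4, 32.7 and 76.0 CPM in aged mice, without overlap. That fall was not called (−0.61 ± 0.28, adjusted p = 0.228). The sum of 5 HS markers in AV cells was 193 to 277 CPM in young and 30.0 to 39.3 CPM in aged mice. Its part in the lower Wfdc2 level was not tested. HS cells held 87.0% of Wfdc2 UMIs.

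Chi3l1, the chitinase-like lectin, was highest in myoepithelial cells. They had 627, 1219 and 883 CPM in young and 1599, 1318, 821 and 883 CPM in aged mice, overlapping groups with no call (0.47 ± 0.25, adjusted p = 0.168). AV cells came second by the mean over mice, below myoepithelial cells in 7 of 7 mice and above Mb macrophages in 6 of 7, with 33.5, 84.5 and 95 CPM in young and 338, 97.4, 174 and 321 CPM in aged mice. The groups did not overlap, although Aged B was only just above Young C, and the rise was called (2.00 ± 0.50, 4.00-fold, adjusted p = 0.0416). The call was lost without each of Young A, B and C, Aged A, C and D (adjusted p from 0.0703 to 0.121, log2 from 1.63 to 2.35). Chi3l1 in AV cells ran at 5.34% to 36.4% of the myoepithelial level of the same mouse, and the keratin sum at 0.360% to 1.16%. In vascular endothelial cells the level was 1.46, 4.36 and 27.5 CPM in young and 39.2, 11.2, 25.8 and 23.5 CPM in aged mice (2.02 ± 0.68, adjusted p = 0.0374, from 31 and 119 UMIs). That call was lost without Young A, Young B, Aged A, Aged C or Aged D (adjusted p from 0.0628 to 0.172) and with DESeq2 (0.279).

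**Figure D2:**
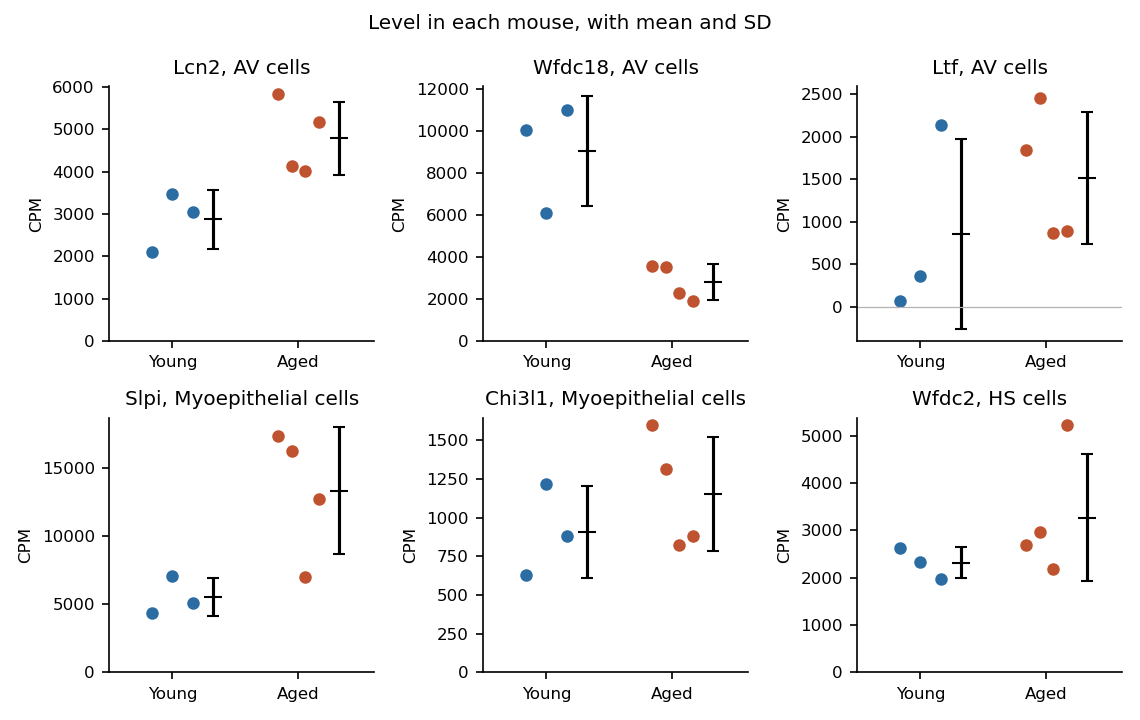
Level (CPM, linear axis) in each of 3 young and 4 aged mice for 6 pairs of a gene and a main source type, with the mean and SD of each group. Lcn2 and Wfdc18 in AV cells do not overlap between ages, Ltf in AV cells spans 64.6 to 2140 CPM in young mice alone, and Slpi in myoepithelial cells overlaps only through Aged C.

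Lyz2, the myeloid lysozyme, was measured in few aged cells. Ma macrophages had 7602, 6249 and 5955 CPM in the young mice, and aged mice gave 1 such cell in all. Mb macrophages had 4303, 2098 and 1791 CPM in young mice and 18668, 902, 19942 and 1353 CPM in aged mice, from 9, 6, 4 and 3 aged cells. Aged A and Aged C lay far above and Aged B and Aged D below all young mice, and the difference was not called (2.14 ± 0.98, adjusted p = 0.249). The median Mb macrophage held 17.5, 4 and 6.5 Lyz2 UMIs in Young A, B and C and 108, 1, 77 and 1 in Aged A, B, C and D. Ma exceeded Mb macrophages in 3 of 3 young mice, so the higher mean of Mb over all mice came from aged mice. Dendritic cells had 2241, 2980 and 4117 CPM in young and 2006 and 688 CPM in Aged A and B. Counts of the near-identical paralog Lyz1 may be split with Lyz2 by the counting, and Lyz1 had 393 CPM on average in dendritic cells and 18.1 CPM in Mb macrophages.

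Lyz2 was called lower with age in 3 types that are not myeloid. AV cells had 19.0, 34.2 and 25.2 CPM in young and 3.78, 0.598, 0.818 and 0.644 CPM in aged mice (−3.90 ± 0.56, adjusted p = 0.00334). Myoepithelial cells had 15.1, 9.83 and 16.2 CPM against 0.919, 0.344, 3.08 and 1.71 CPM (−3.45 ± 0.62, adjusted p = 0.00057). Vascular endothelial cells had 20.4, 8.17 and 11 CPM against 2.12, 0, 0 and 0 CPM (adjusted p = 0.000682). Those 2 aged UMIs against 65 young ones give a pooled ratio of 35.7, with an exact 95% interval of 9.48 to 301 for counting error alone. The summed level of 7 myeloid markers over all cells of a mouse was 2058 to 5948 CPM in young and 248 to 1533 CPM in aged mice. Within AV cells it was 127 to 218 against 18.3 to 76.3 CPM and within myoepithelial cells 182 to 279 against 47.2 to 82.2 CPM. Within vascular endothelial cells the sum ran the other way, at 210 to 608 against 622 to 8713 CPM, but its 3 tested genes were split, with Cd74 called higher (log2 3.35, adjusted p = 0.00763) and Tyrobp (−4.44, adjusted p = 0.00975) and Fcer1g (−1.93, adjusted p = 0.00616) called lower. Its part in the fall of Lyz2 was not tested.

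Saa3 and Pigr were near the limit of detection. Saa3 had 99 UMIs in all, 90.9% of them in fibroblasts. In Young A all 28 fibroblast UMIs lay in 1 of 581 cells, in Young C 27 of 40 lay in 1 cell, and in Aged A all 19 lay in 1 of 121 cells. Aged B and Aged C had 0 in 41 and 15 fibroblasts. Pigr, the immunoglobulin receptor, had 230 UMIs in all, 95.2% of them in AV cells. AV cells had 1.15, 5.40 and 1.65 CPM in young and 16.5, 1.89, 8.59 and 4.51 CPM in aged mice, which overlapped (2.21 ± 0.92, adjusted p = 0.175, and 0.0479 without Aged B). In Aged A 81 of 860 AV cells held a Pigr UMI, and in Young A 2 of 288 did.

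Markers of neutrophils, another cell that stores Ltf, Lcn2 and Chi3l1 in granules, were nearly absent from the deposited cells. These cells had passed the authors' lower limits on UMIs and genes, so cells below those limits could not be seen. Of 10 neutrophil genes, Ngp and Ly6g had no count in any cell, and the sum of all 10 was 2.42 to 3.69 CPM over all cells of young and 1.58 to 13.3 CPM over all cells of aged mice. In AV cells it was 0 to 0.826 CPM in young and 1.77 to 19.9 CPM in aged mice, with 7 of the 10 at 0. Ltf in the NK cells of Aged B, 2382 CPM from 5 cells, stood beside an AV marker sum of 801 to 4806 CPM in the NK cells of aged mice.

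Counted over the 8 cell types that could be compared between ages, the members gave 72 pairs of a gene and a type. The filter on low counts let 40 through, and 11 of these were called higher (background 6.85% of all tested pairs), 6 lower (background 6.17%) and 23 not. The background is the percent of all genes called in the same fits. Calls of 1 gene in several types come from the same mice and are not independent. The 11 higher calls came from Lcn2 and Slpi in 4 types each, Chi3l1 in 2 and Ltf in 1, and the 6 lower calls from Wfdc18 and Lyz2 in 3 types each. Wfdc2 was tested in 5 types, with adjusted p from 0.196 to 0.903, and Pigr in 1, with an adjusted p of 0.175, while Saa3 passed the filter in none of the 8. In AV cells 2 of 8 tested members were higher (background 2.90%) and 2 lower (background 3.26%, and 6.16% in either direction). In HS cells 1 of 7 was higher (3.93%) and 1 lower (2.33%, and 6.26% in either direction). In myoepithelial cells 2 of 7 were higher and 1 lower, where 12.8% and 14.8% of all genes were (27.6% in either direction), and in vascular endothelial cells 3 of 7 and 2 of 7, where 14.7% and 12.0% of all genes were (26.7% in either direction). Fibroblasts gave 1 of 5 called, a rise (2.07% of all genes higher, 1.11% lower and 3.17% in either direction), and pericytes 2 of 3, both rises (7.19% higher, 4.61% lower and 11.8% in either direction). In Mb macrophages 2 members were tested (adjusted p = 0.249 for Lyz2 and 0.938 for Slpi), and in T and B cells Lcn2 was (adjusted p = 0.206). Of all genes, 0.931% were called higher, 0.233% lower and 1.16% in either direction in Mb macrophages, and 0.219%, 0.438% and 0.656% in T and B cells.

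**Figure D3:**
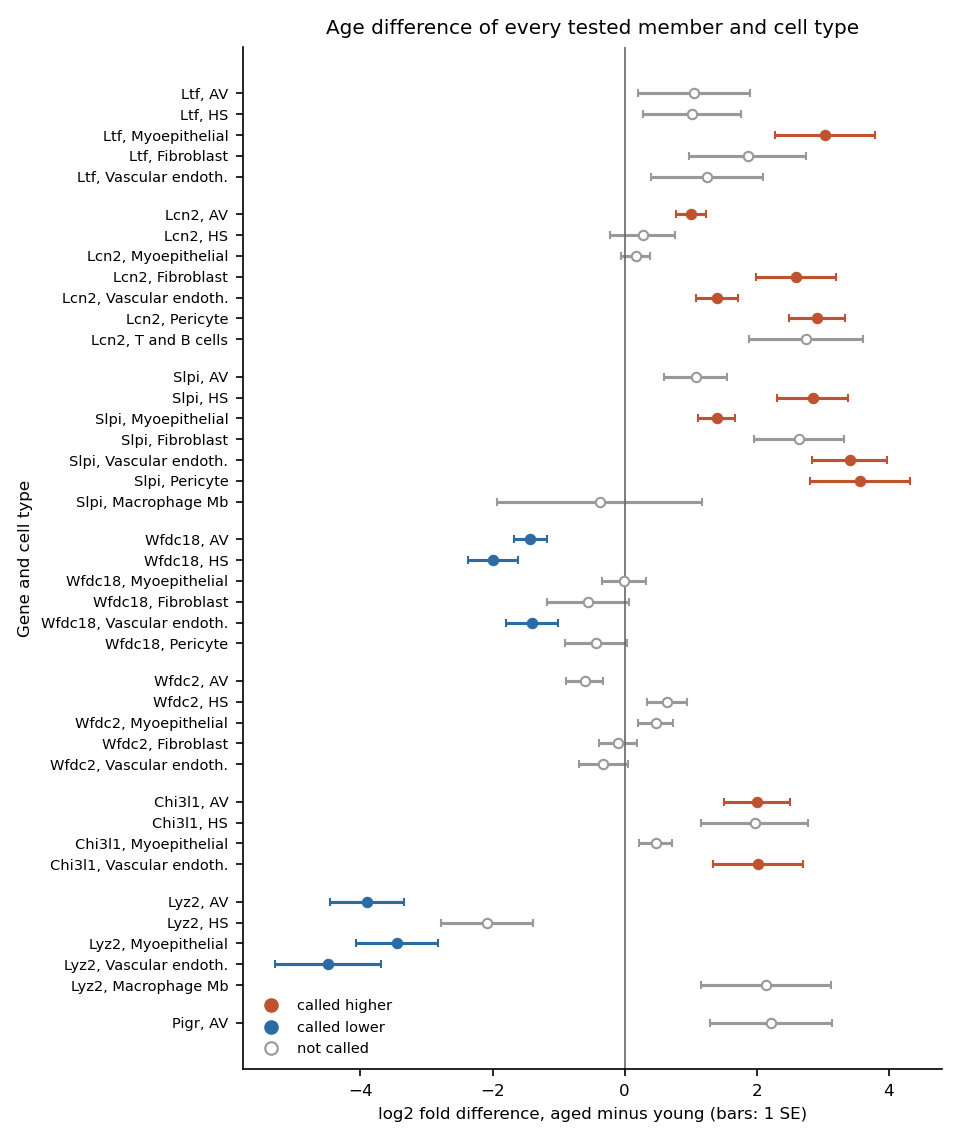
Difference between aged and young mice (log2, edgeR, bars 1 SE) for the 40 tested pairs of a gene and a cell type, with called pairs filled. Lcn2 and Slpi lie above 0 in all but 1 pair, Wfdc18 at or below 0 in every pair under these settings (its near-0 value in myoepithelial cells changes sign under other settings), and Lyz2 below 0 in every type except Mb macrophages.

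Whether an age difference depended on the epithelial type was tested directly, in a fit over AV, HS and myoepithelial cells with the mouse as a block. Wfdc18 fell more in AV than in myoepithelial cells (difference of the log2 age changes −1.64 ± 0.37, adjusted p = 0.0067) and more in HS than in myoepithelial cells (−2.18 ± 0.39, adjusted p = 0.00136). Its young and aged means were 9033 and 2802 CPM in AV, 333 and 76.3 CPM in HS and 166 and 168 CPM in myoepithelial cells. The AV marker sum was 306 to 413 CPM in young and 218 to 974 CPM in aged HS cells. In myoepithelial cells that sum was 1084 to 1283 against 941 to 1511 CPM. Whether it had a part in the Wfdc18 differences was not tested. Wfdc2 moved differently in AV than in HS cells (−1.12 ± 0.27, adjusted p = 0.0234) and than in myoepithelial cells (−1.15 ± 0.32, adjusted p = 0.0225), although no type alone gave a call for it. The HS marker sum was also lower in aged AV cells, at 30.0 to 39.3 against 193 to 277 CPM in young. In myoepithelial cells it was 9.23 to 37.7 CPM in aged against 45.3 to 108 CPM in young mice. Its part in the Wfdc2 differences was not tested. The first Wfdc2 difference was lost without Young B, Young C or Aged C (adjusted p from 0.0607 to 0.132) and the second without Young A, Young B or Aged C (adjusted p from 0.0555 to 0.121), and both were lost with counts thinned to equal totals (log2 difference −1.01 and −0.82). These were 4 of 21 tests of members, where 2.48% of all genes differed between AV and HS, 10.7% between AV and myoepithelial and 8.18% between HS and myoepithelial cells. Lcn2 rose by a called amount in AV and not in myoepithelial cells, yet its difference between these types was not called (0.71 ± 0.43, adjusted p = 0.299). For Slpi the age changes in HS and AV cells were not called different (−1.63 ± 0.49, adjusted p = 0.0836).

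Free RNA from broken cells can enter the droplets of any cell, so levels outside the main source were set beside the summed marker genes of that source. Lcn2 in myoepithelial cells ran at 30.5% to 89.1% of its AV level, against 3.98% to 23.7% for the AV marker sum, and was above it in 7 of 7 mice. Slpi in AV cells ran at 0.876% to 2.93% of its myoepithelial level, against 0.360% to 1.16% for the keratin sum, and was above it in 6 of 7 mice. Wfdc18 in myoepithelial, fibroblast and vascular endothelial cells ran at medians of 3.79%, 2.14% and 1.99% of the AV level, against 7.22%, 3.58% and 3.17% for the marker sum. Ltf was above the AV marker sum in 3 of 7 mice in HS cells and in 2 of 7 in myoepithelial cells. A sum is carried by its most abundant genes, and the median of the single markers ran lower in these types, at 4.15% in myoepithelial cells, 2.22% in fibroblasts and 2.10% in vascular endothelial cells for the AV markers.

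**Figure D4:**
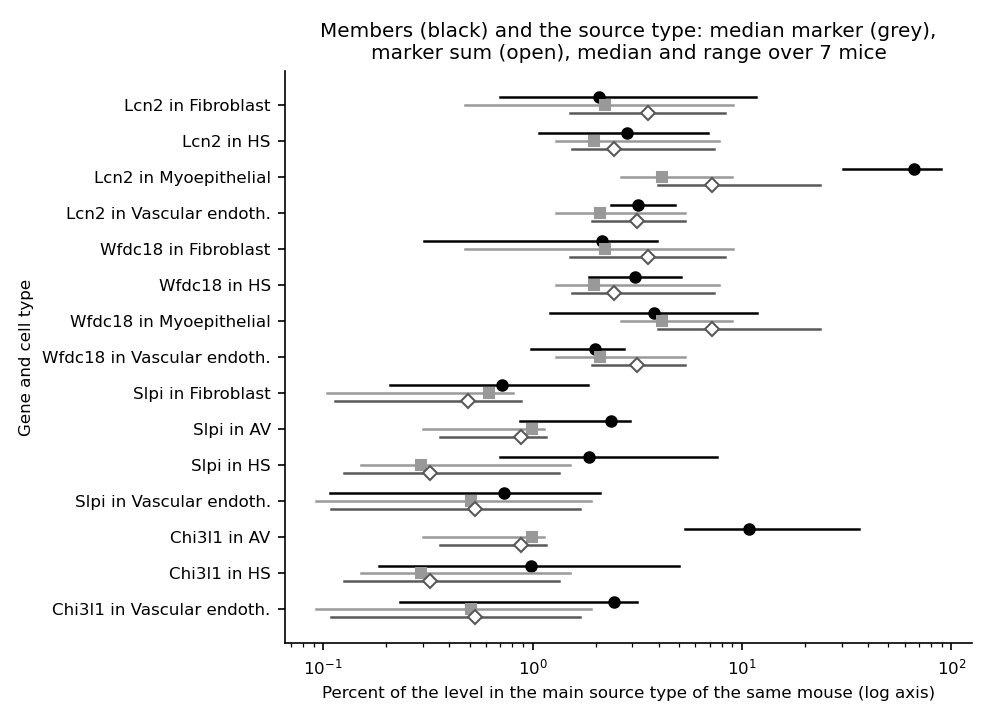
Level in another cell type as a percent of the level in the main source type of the same mouse (log axis), for 4 members (black), for the median of the single markers of that source (grey) and for their sum (open), as median and range over 7 mice, for pairs above 0 in every mouse. Lcn2 in myoepithelial cells and Chi3l1 in AV cells stand clear of the markers, and Wfdc18 overlaps them in all 4 types.

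The 4 members called higher with all captured cells of a mouse summed as 1 sample had a higher log2 estimate there than in their main source type. This sum is not the whole gland, since adipocytes and lymph nodes were removed before capture. Over all cells of a mouse, Lcn2 had 526, 491 and 603 CPM in young and 3857, 2934, 3057 and 3313 CPM in aged mice, a called rise of 2.95 ± 0.17 log2 (adjusted p = 0.0002). Slpi (3.18 ± 0.55, adjusted p = 0.00383), Chi3l1 (2.89 ± 0.28, adjusted p = 0.000642) and Pigr (3.75 ± 0.85, adjusted p = 0.0102) were called higher as well, 4 of 9 members where 15.9% of all genes were, 16.8% were lower and 32.7% were called in either direction. Wfdc2 had the lowest p among members with a decrease and was not called (−0.70 ± 0.29, unadjusted p = 0.0444, edgeR adjusted p = 0.0933). Ltf (2.98 ± 1.11, adjusted p = 0.0638) and Wfdc18 (0.61 ± 0.36, adjusted p = 0.206) were not called. AV cells were 8.23% to 14.0% of the cells of young and 52.2% to 66.4% of those of aged mice, and myoepithelial cells 1.88% to 8.34% and 9.12% to 24.1%. In such a sum more cells of a type and more RNA per cell cannot be told apart. Wfdc18, lower in the AV cells of every aged mouse, stood at 1652, 697 and 1973 CPM in young and 2160.0, 2100.4, 1656 and 1117 CPM in aged mice over all cells.

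Single AV cells differed in how the members were spread. With every cell thinned to 2000 UMIs, Lcn2 was detected in 87.8% to 95.2% of AV cells of young and 97.3% to 98.7% of aged mice, and the 10% of cells with the most UMIs held 28.1% to 30.5% and 24.2% to 26.5% of its UMIs. Wfdc18 was detected in 85.6% to 97.5% of young and 45.3% to 77.2% of aged AV cells, and the top 10% held 28.5% to 39.4% and 44.7% to 73.8% of its UMIs. Neither measure overlapped between ages for Wfdc18, and no test was run on them. The most Wfdc18-rich AV cell of each mouse held 280 to 324 UMIs in young and 290 to 354 in aged mice as deposited, while the median cell held 47, 19 and 51.5 UMIs in young and 11, 11, 6 and 1 in aged mice. Ltf was detected in 4.86%, 23.1% and 66.2% of young AV cells and in 23.8% to 53.9% of aged ones. For comparison, dendritic cells held an Lcn2 UMI in 12.2% ± 7.23, a Wfdc18 UMI in 2.92% ± 2.89 and an Ltf UMI in 1.62% ± 3.12 of thinned cells (SD over 5 mice). Their median was 4648 UMIs per cell before thinning, against 6632 in AV cells. Whether dendritic cells make any of these RNAs themselves was not tested. Without thinning Lcn2 was found in 98.3% ± 1.83, Wfdc18 in 87.1% ± 11.5 and Ltf in 49.0% ± 22.7 of AV cells (SD, n = 7).

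**Figure D5:**
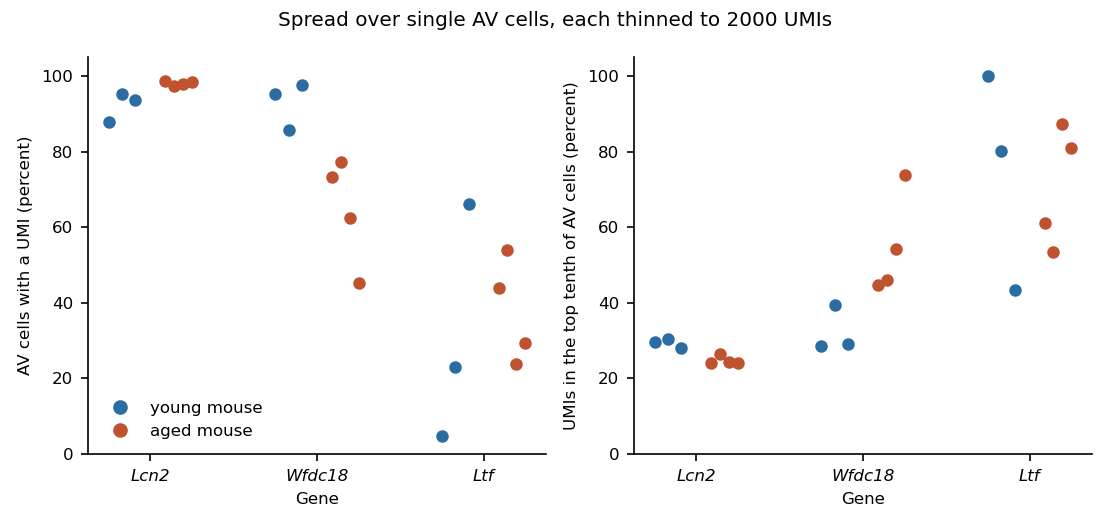
Percent of AV cells with a UMI (left) and percent of all UMIs held by the 10% of AV cells with the most (right) for Lcn2, Wfdc18 and Ltf in each mouse, every cell thinned to 2000 UMIs. Aged mice lie at 45.3% to 77.2% of AV cells with Wfdc18, below the young mice, and at 44.7% to 73.8% for the top 10%, above them.

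Within AV cells of a mouse, thinned to equal depth, Ltf and Wfdc18 had the highest median Spearman correlation, 0.415 over 7 mice. It was 0.214, 0.179 and 0.226 in young and 0.500, 0.477, 0.415 and 0.474 in aged mice, and in Young B it was below that of Chi3l1 and Slpi (0.308) and of Lcn2 and Wfdc18 (0.241). Within myoepithelial cells Lcn2 and Chi3l1 had the highest median, 0.338, with 0.378, 0.427 and 0.485 in young and 0.323, 0.179, 0.338 and 0.201 in aged mice, and in Aged B it was below that of Slpi and Chi3l1 (0.218). These are descriptions of cells that share a library. Over 58 sums of a mouse and a cell type with at least 10 cells, which share mice and depth, the 3 genes most like each member among 7380 were found by Pearson correlation of log2(CPM + 1). For Ltf they were Btn1a1, a milk fat globule protein (0.81), Trim46 (0.77) and Plb1 (0.74). For Lcn2 they were Sox10, a transcription factor of neural crest and progenitor cells (0.88), Fxyd3 (0.84) and Tspan8 (0.83). Slpi was most like the basal keratins Krt14 (0.84) and Krt17 (0.83) and 1500015O10Rik (0.81), and Chi3l1 most like 1500015O10Rik (0.81), Col9a3 (0.81) and Slpi (0.80). Wfdc18 was followed by Barx2 (0.86), Slc28a3 (0.81) and Plb1 (0.80), and Wfdc2 by Cd164 (0.90), Upk2 (0.90) and Cxcl15 (0.89). Lyz2 was closest to Ccl6, a chemokine of myeloid cells (0.95), Pld4 (0.94) and Clec4a3 (0.93). The nearly undetected genes gave lower values, at most 0.62 with Dpp4 for Saa3 and 0.70 with C530043A13Rik for Pigr. Between members the closest were Slpi and Chi3l1 (0.80) and Lcn2 and Chi3l1 (0.77).

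Other secreted defence genes, a list of 50 of which 47 were in the matrix and 1 is Chi3l1 itself, were called in the same fits. In AV cells 6 of 24 tested were higher and 0 lower, where 2.90% and 3.26% of all genes were, with a median log2 change of 0.70 against 0.02 for all genes. In myoepithelial cells 6 of 15 were higher and 3 lower, where 12.8% and 14.8% of all genes were. Vascular endothelial cells gave 9 of 16 higher and 1 lower, where 14.7% and 12.0% of all genes were. HS cells gave 1 of 14 higher, fibroblasts 1 of 12 and pericytes 1 of 5, where 3.93%, 2.07% and 7.19% of all genes were. Lower calls were 0 in each of these types. Calls were also 0 of 3 tested genes for Mb macrophages and 0 of 1 for T and B cells. Hp, which binds free hemoglobin, had 49.0, 7.19 and 28.9 CPM in young and 196, 221, 495 and 509 CPM in aged AV cells (3.83 ± 0.56, adjusted p = 0.0037). Spp1, a secreted phosphoprotein of milk, averaged 0.881 CPM in young AV cells and had 3327, 263, 976 and 2591 CPM in aged ones (adjusted p = 0.00103). It was called higher in 5 types. The AV marker Csn2 was also called higher in HS, myoepithelial and vascular endothelial cells and in fibroblasts. The part of free RNA in the Spp1 calls was not tested. Lbp, the lipopolysaccharide-binding protein, rose in AV (1.51 ± 0.33, adjusted p = 0.0269) and vascular endothelial cells (2.49 ± 0.27, adjusted p = 2.5e-05), and Hamp, the iron hormone hepcidin, in myoepithelial (4.30 ± 0.76, adjusted p = 0.000604) and vascular endothelial cells. Clu, a secreted chaperone, and the lectin Lgals3 rose in the same pair of types. Complement C3 was called lower in myoepithelial (−2.66 ± 0.27, adjusted p = 6.6e-06) and vascular endothelial cells (−2.05 ± 0.49, adjusted p = 0.00601). The fibroblast marker sum was 24.6 to 181 CPM in young and 1.54 to 23.9 CPM in aged myoepithelial cells. In vascular endothelial cells it was 25.0 to 99.0 against 0.698 to 10.6 CPM. Its part in the fall of C3 was not tested. Mfge8, the milk fat globule protein that is also on the AV marker list, was lower in myoepithelial and higher in AV cells and pericytes.

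Of 26 receptors and transcription factors that act upstream of such genes, 25 were in the matrix. In AV cells 4 of 25 tested were higher and 1 lower, where 2.90% and 3.26% of all genes were. In myoepithelial cells it was 10 of 22 and 1 (12.8% and 14.8% of all genes). HS cells gave 4 of 23 and 0 (3.93% and 2.33%), and vascular endothelial cells 12 of 22 and 1 (14.7% and 12.0%). Fibroblasts gave 1 of 20 higher and 1 lower (2.07% and 1.11%). Calls were 0 of 12 tested factors for pericytes, 0 of 9 for Mb macrophages and 0 of 2 for T and B cells. Prlr, the prolactin receptor, was called lower in 4 types. In AV cells it had 141, 243 and 204 CPM in young and 26.7, 25.5, 26.9 and 21.6 CPM in aged mice (−2.69 ± 0.22, adjusted p = 0.000375), and in HS cells, whose marker list holds it, it was not called (−0.44 ± 0.22, adjusted p = 0.256). The other HS markers, Pgr, Esr1, Cited1 and Prom1, were called lower in AV cells too (log2 −2.99, −1.68, −1.60 and −2.08). The part of free RNA of HS cells in the fall of Prlr was not tested. Relb, a subunit of NF-kB, was higher in AV (1.64 ± 0.37, adjusted p = 0.0296), HS, myoepithelial and vascular endothelial cells. The NF-kB inhibitor Nfkbia, the related Nfkbiz and the ribonuclease Zc3h12a, all induced by NF-kB, were higher in HS, myoepithelial and vascular endothelial cells. Nfkbia stood at 1.84 ± 0.21 in myoepithelial cells (adjusted p = 1.56e-05). Rela, Nfkb1 and Tlr2, a receptor for bacterial lipoproteins, were higher in myoepithelial and vascular endothelial cells, Tlr2 by 3.67 ± 0.36 in myoepithelial cells (adjusted p = 4.18e-06). Tlr4, the lipopolysaccharide receptor, was higher in AV cells (1.84 ± 0.32, adjusted p = 0.00865). Of the C/EBP factors, Cebpa was higher in AV (1.14 ± 0.23, adjusted p = 0.0193) and myoepithelial cells, and Cebpb in fibroblasts and vascular endothelial cells. No link between these factors and the members was tested.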

How the data were processed

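Mammary cells of 3 young and 4 aged mice, 1 library per mouse, were measured by 10× Chromium 3′ v2 single-cell RNA-seq. The values deposited by the authors were unnormalized UMI counts, made with Cell Ranger 2.0 on mm10 and already filtered on UMIs, genes and mitochondrial share, with a table that gives each cell its mouse and cell type as other, non-numeric labels. Doublets were limited by the authors' upper limits on UMIs and genes, a filter that can remove the most active secretory cells. With Scrublet and DoubletFinder the authors judged that doublets were likely a negligible share and drove no clusters. No doublet caller was run here.

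UMIs were summed per mouse and cell type (at least 3 cells) and expressed as CPM. Age was tested with edgeR 4.0.16 (glmQLFit, TMM, filterByExpr, R 4.3.3) in 8 types, each with the 7 mice as replicates. DESeq2 1.42.0 was an alternative. SEs and 95% intervals were derived from the test statistic and are approximate. Mice of a group are separate animals. The interaction of age and type was fitted over AV, HS and myoepithelial sums with the mouse as a block. For shares of cells, each cell was thinned to 2000 UMIs, and intervals and floors cover counting error only. On simulated counts edgeR recovered 76% (AV) to 91% (Mb macrophages) of the changed genes, with 5 to 9 false calls per type. The simulation gave every gene the same spread between mice and changed only well-counted genes. These figures therefore do not give the recovery for members with low or widely varying counts.

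The members and lists were chosen with earlier results of these data known, and cell types were not tested against each other because they were clustered on these genes. Named genes were the 9 members, the 3 genes most correlated with each, and, of the lists of other defence genes and upstream factors, those called in at least 2 types and the 2 largest called changes in each direction in AV cells. The sum over all cells was added after the levels were seen. Alternatives covered normalization, the low-count filter, depth, DESeq2, the fold limit and each mouse left out.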

Additional observations from a re-analysis of the deposited data

Results flagged for a closer look

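In 4 of 40 groups of aged mice 1 mouse stood apart from the other 3 by Dixon's limit, which chance passes in about 1 of 20 groups, and it was Aged A each time. Slpi in AV cells was 483 CPM in Aged A and 143 to 169 CPM in the others. Lyz2 was 3.78 CPM in its AV cells against 0.598 to 0.818 CPM, 7.32 CPM in its HS cells against 0 to 1.18 CPM, and 2.12 CPM in its vascular endothelial cells against 0 CPM. Over all cells, Lyz2 was 158 CPM in Aged A and 3.29, 51.3 and 3.82 CPM in Aged B, C and D. Without Aged A the fall of Lyz2 in HS cells was called (log2 −4.74, adjusted p = 0.00929). The myeloid marker sum in HS cells was 71.1 to 84.9 CPM in young and 14.9 to 48.2 CPM in aged mice. Whether free RNA had a part in these Lyz2 values was not tested.

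The age difference varied between epithelial types for Wfdc2 (log2 difference −1.12 between AV and HS and −1.15 between AV and myoepithelial cells) and for Wfdc18 (−1.64 between AV and myoepithelial and −2.18 between HS and myoepithelial cells), by the edgeR interaction test with adjustment over all genes. The part of free RNA in these differences was not tested.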

How the results depend on the processing

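Of the alternatives of single results called in the main analysis, 255 kept the call and 45 lost it. Of those not called, 357 stayed uncalled, 24 became called and 14 changed sign. The 11 higher calls became 5 when every young mouse also had to be clear of every aged one by a minimum fold, 6 with the replicate block, 7 with counts thinned to equal totals, 23 with no filter on low counts, and 6 to 14 when each mouse was left out. The lower calls, 6, stayed within 4 to 8. DESeq2 gave 10 higher and 5 lower. The 4 interaction calls became 11 with no filter, 2 with thinned counts and 2 to 9 when each mouse was left out. The calls of Slpi in vascular endothelial cells, of Lcn2 and Slpi in pericytes, of Wfdc18 in HS cells and of Lyz2 in AV, myoepithelial and vascular endothelial cells held under all alternatives that gave a value for the pair. Those numbered 15 for most of these pairs. They numbered 14 for Lyz2 in vascular endothelial cells, 12 for Slpi in pericytes and 10 for Lyz2 in myoepithelial cells, so these calls were tried less often.

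The letters of the mice do not pair them (correlations of same-lettered deviations −0.34 to 0.10). With the replicate block, the calls of Chi3l1 in AV and vascular endothelial cells, of Lcn2 in AV cells and fibroblasts, of Slpi in HS cells and of Wfdc18 in vascular endothelial cells were lost.

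Signs turned as follows, and the cause was not tested. Wfdc18 in myoepithelial cells was 0.034 with DESeq2, 0.11 with no filter, 0.31 with the replicate block, 0.28 thinned, and −0.29 to 0.24 with a mouse left out. Lcn2 in HS cells was −0.50 with the replicate block and −0.40 (without Aged D) to 0.57 with a mouse left out. Slpi in Mb macrophages was 1.82 with the replicate block. With a mouse left out, Wfdc18 was −1.35 to 0.14 in fibroblasts (highest without Young C) and −0.80 to 0.047 in pericytes (highest without Young B), and Wfdc2 was −0.67 to 0.014 in vascular endothelial cells (highest without Young A). The log2 ratio of Saa3 in fibroblasts to dendritic cells was −0.15 with at least 10 cells, −1.09 in young mice, and −0.75 to 3.59 with a mouse left out, below 0 without Young A, Young C, Aged A or Aged D. That of Lyz2 in Mb to Ma macrophages was −1.22 with at least 10 cells, −1.08 in young mice, −0.085 with thinned cells, and −0.44 to 0.29 with a mouse left out, below 0 without Aged A or Aged C. A minimum of 10 cells could not be fitted in Mb macrophages and T and B cells.

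Ltf depended on Young C. Without it the rise of Ltf was called in HS cells (log2 3.98, adjusted p = 0.00149), fibroblasts (6.11), vascular endothelial cells (4.06) and all cells (5.71, adjusted p = 0.00217), and in AV cells it was 3.11 and not called (adjusted p = 0.0692). Over all mice, Ltf averaged 19.3 CPM in young and 41.8 CPM in aged HS cells. The means were 10.7 and 36.1 CPM in fibroblasts and 26.5 and 35.0 CPM in vascular endothelial cells. The AV marker sum was 306 to 413 CPM in young and 218 to 974 CPM in aged HS cells. That sum was 205 to 345 against 317 to 1966 CPM in fibroblasts and 278 to 416 against 352 to 773 CPM in vascular endothelial cells. Whether it had a part in these Ltf rises was not tested. Calls also appeared for Wfdc2 in myoepithelial cells without Young C (0.82, adjusted p = 0.0442), for Chi3l1 in HS cells without Aged B (2.42, adjusted p = 0.0378), and without Aged A for Lyz2 in HS cells (−4.74, adjusted p = 0.00929) and for Saa3 (−3.80, adjusted p = 0.00866) and Lyz2 (−3.50) in all cells. Aged fibroblasts, immune cells and HS-AV cells are few, which limits the members there.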
